A study of Mus musculus with 20 samples.

Results

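The comparison is between mouse induced pluripotent stem cell (iPSC) lines made with the SNEL factors, Sall4, Nanog, Esrrb and Lin28, and lines made with the OSKM factors, Oct4, Sox2, Klf4 and Myc. Lines were taken by the factor set in their titles: 3 SNEL lines on 6 arrays (Nanog-GFP SNEL#2, Nanog-GFP SNEL#3, Oct4-GFP SNEL#1) and 4 OSKM lines on 8 arrays (Nanog-GFP OSKM#2, Oct4-GFP OSKM#2, KH2_OSKM and BC_2 OSKM). These are 14 of the 20 arrays of the series. The other 6 arrays hold 3 embryonic stem cell (ESC) lines (Nanog-GFP ESCs, Oct4-GFP ESCs and KH2 ESCs). Per the labels all lines grew untreated in 2i medium without feeder cells, and RNA was labelled with Cy3 for arrays in 1 colour. In the labels 2 SNEL lines are of high quality (Nanog-GFP SNEL#2, Oct4-GFP SNEL#1), 1 line of each factor set is good (Nanog-GFP SNEL#3, BC_2 OSKM), and the other 3 OSKM lines are poor, by a measure the labels do not name. Factor set and grade therefore cannot be told apart, except in the good grade, which holds 1 line of each set. Each line is 1 established line with 2 arrays, nothing says that its arrays came from separate cultures, and n below counts lines.

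Reprogramming with OSKM returns a fibroblast to a state like that of the inner cell mass, by forced expression of core pluripotency factors (Oct4, Sox2), a naive-state factor (Klf4) and a growth regulator (Myc). SNEL omits all of these. Sall4 is a zinc finger factor and Nanog a homeodomain factor of the pluripotency network, Esrrb is an orphan nuclear receptor of the naive state, and Lin28 is an RNA-binding protein that blocks maturation of let-7 microRNAs. In mouse iPSCs, silencing of the imprinted Dlk1-Dio3 cluster, with its maternal noncoding RNAs Meg3 and Mirg, is known as a mark of lines that contribute poorly to embryos.

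A level below is the log2 signal of a gene's probe after subtraction of its array's 75th percentile, so 0 is the signal that 75% of probes do not exceed. Differences are SNEL minus OSKM on that log2 scale. All 7 pluripotency markers checked (Pou5f1, Nanog, Sox2, Zfp42, Esrrb, Dppa5a and Tdgf1) were well above background on all 6 SNEL and all 8 OSKM arrays, and their summed level was 9.42 to 9.64 in SNEL lines and 9.396 to 9.552 in OSKM lines. The summed level of the fibroblast markers was 0.20 to 3.09 in SNEL lines, 0.73 to 1.67 in OSKM lines and 2.45 to 3.08 in ESC lines, with 6 of 7 markers tested. The share of probes well above background was lower in every SNEL line (50.1%, 57.3% and 58.8%) than in every OSKM line (61.2% to 67.7%) and every ESC line (62.6% to 66.0%). The line means of this share moved with the factor set, but single arrays of the groups overlapped. Oct4-GFP SNEL#1 had 49.5% on its first array and 68.0% on its second, and KH2_OSKM had 77.2% and 58.3%. The part of this share in the results below was not tested beyond a fit that took its line means as a covariate.

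Oct4-GFP SNEL#1 stood apart from the other SNEL lines. Its root mean square log2 distance over all 27059 genes tested was 0.91 to Nanog-GFP SNEL#2 and 1.02 to Nanog-GFP SNEL#3, whereas those Nanog-GFP lines were 0.55 apart. SNEL lines were 0.64 to 1.05 from OSKM lines (12 pairs) and OSKM lines were 0.66 to 0.88 from each other (6 pairs). The 2 arrays of a line were 0.49 to 0.92 apart, the largest gap being that of KH2_OSKM. The mean distance to the 3 ESC lines was 0.736, 0.756 and 0.782 in the SNEL lines, against 0.742 to 0.851 in the OSKM lines. The means were 0.758 ± 0.023 (SD, n = 3) in SNEL lines and 0.808 ± 0.050 (SD, n = 4) in OSKM lines. Each line counts as independent here, although Nanog-GFP SNEL#2 and Nanog-GFP SNEL#3 share 1 origin. An exact two-sided permutation test of the difference of -0.05 gave p = 0.171, where the smallest p that 35 divisions allow is 0.0571, so this design could not reach 0.05. The sign of this difference turned when dim probes were kept (0.0067, exact permutation p = 0.971).

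**Figure D1:**
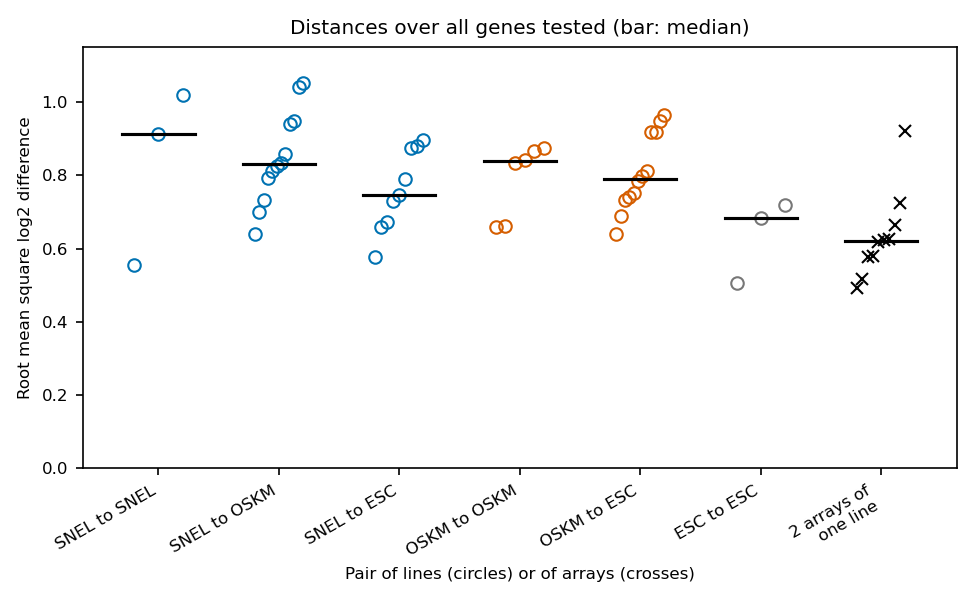
Root mean square log2 difference over all genes tested (y axis) for each pair of lines by kind (circles, x axis) and for the 2 arrays of each line (crosses), with the median as a bar. SNEL lines were 0.58 to 0.90 from ESC lines and OSKM lines were 0.64 to 0.97 from them, and 1 SNEL pair (0.55) lay closer than every OSKM pair.

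Only 2 genes passed limma's Benjamini-Hochberg adjusted p of 0.05 between SNEL and OSKM lines, Fgf22 and Grem1, both higher in SNEL lines. These are 0.00739% of the genes tested, and 0.0% passed as lower. At an unadjusted p under 0.05 the background was 3.82% higher (1033 genes) and 5.58% lower (1511 genes). The 3 SNEL lines lay above all 4 OSKM lines for 959 genes (3.54%) and below all 4 for 1067 genes (3.94%). The median difference over all genes was -0.01.

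Fgf22 encodes a fibroblast growth factor known for its part in synapse formation. On the first array of each line its level was -0.46, -0.80 and -0.79 in Nanog-GFP SNEL#2, Nanog-GFP SNEL#3 and Oct4-GFP SNEL#1, against -3.53, -3.51, -3.72 and -3.90 in Nanog-GFP OSKM#2, Oct4-GFP OSKM#2, KH2_OSKM and BC_2 OSKM. On the second arrays it was -3.18, -3.06 and -2.75 in the same SNEL lines, against -3.35, -3.29, -3.37 and -3.73 in the OSKM lines. So the high values were those of the first SNEL arrays, which all lay on 1 slide, while the second arrays of SNEL lines were close to those of OSKM lines. The line means were -1.84 ± 0.08 (SD, n = 3) in SNEL lines and -3.55 ± 0.18 (SD, n = 4) in OSKM lines, a difference of 1.71 ± 0.14 (SE) with a limma adjusted p of 0.016. With the second arrays alone the difference was 0.44 and the call was lost (limma adjusted p of 0.608), and with the first arrays alone it was 2.98. The probe is at chr10:79221282-79221341 (mm9, + strand), 1769 bases beyond the start of a second probe for Fgf22 at chr10:79219513-79219572. That second probe gave -4.53 in SNEL lines and -3.87 in OSKM lines, a difference of -0.65 with overlapping lines, so the probes of Fgf22 disagreed in direction.

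Grem1 encodes gremlin, a secreted antagonist of bone morphogenetic proteins made by stromal cells. Its level was -4.96 and -4.65 in Nanog-GFP SNEL#2, -4.53 and -4.82 in Nanog-GFP SNEL#3, and -3.60 and -3.65 in Oct4-GFP SNEL#1. In OSKM lines it was between -8.31 and -6.99 on all 8 arrays. Grem1 was well above background on 3 of 6 SNEL arrays (1 of Nanog-GFP SNEL#2 and both of Oct4-GFP SNEL#1), on 0 of 8 OSKM arrays and on 6 of 6 ESC arrays, so the OSKM lines, and 3 of the 6 SNEL arrays, give no more than a signal near background. The levels of SNEL and OSKM arrays did not overlap. The measured means were -4.37 ± 0.65 in SNEL lines (SD, n = 3) and -7.76 ± 0.22 in OSKM lines (SD, n = 4), with a limma adjusted p of 0.034. ESC lines, at -4.63, -4.35 and -3.65, were near the SNEL lines. The difference was 3.26 with the second arrays alone and 3.52 with the first, so both sets of arrays gave it, though only the first alone passed the threshold. It was 1.21 in the authors' value table and 0.71 after normexp correction and quantile normalization, where it did not pass.

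The promoters of the called genes are shown because these 2 genes passed the threshold, although the call of Fgf22 rested on the first SNEL arrays. The windows are the 250 bases before the transcription start, from RefSeq (GRCm38.p6), read in the direction of transcription, with capitals for the GC box GGGCGG on either strand, the site of the Sp1 family.
Fgf22, chr10:79754859-79755108, + strand: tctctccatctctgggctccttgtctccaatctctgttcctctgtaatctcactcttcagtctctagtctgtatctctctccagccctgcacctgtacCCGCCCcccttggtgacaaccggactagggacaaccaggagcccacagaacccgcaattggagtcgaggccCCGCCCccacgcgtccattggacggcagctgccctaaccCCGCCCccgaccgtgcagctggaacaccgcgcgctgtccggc
Grem1, chr2:113758649-113758898, - strand: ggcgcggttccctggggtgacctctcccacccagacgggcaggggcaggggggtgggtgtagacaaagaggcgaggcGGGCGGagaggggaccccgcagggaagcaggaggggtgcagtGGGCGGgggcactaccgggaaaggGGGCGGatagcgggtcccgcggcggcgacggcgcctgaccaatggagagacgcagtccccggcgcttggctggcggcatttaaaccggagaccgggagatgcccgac
Each window held 3 GC boxes, a motif found in 32.7% of all 32851 promoters and 50.7% of those of genes tested. The Esrrb half-site AAGGTCA, searched on both strands, was in neither window. It was in 3.00% of the 433 promoters of genes with all SNEL lines above all OSKM lines, in 2.20% of the 683 promoters of genes with all SNEL lines below, and in 3.28% of the 16974 promoters of genes tested. The 433 promoters belong to 352 of the 959 genes and the 683 promoters to 552 of the 1067.

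**Figure D2:**
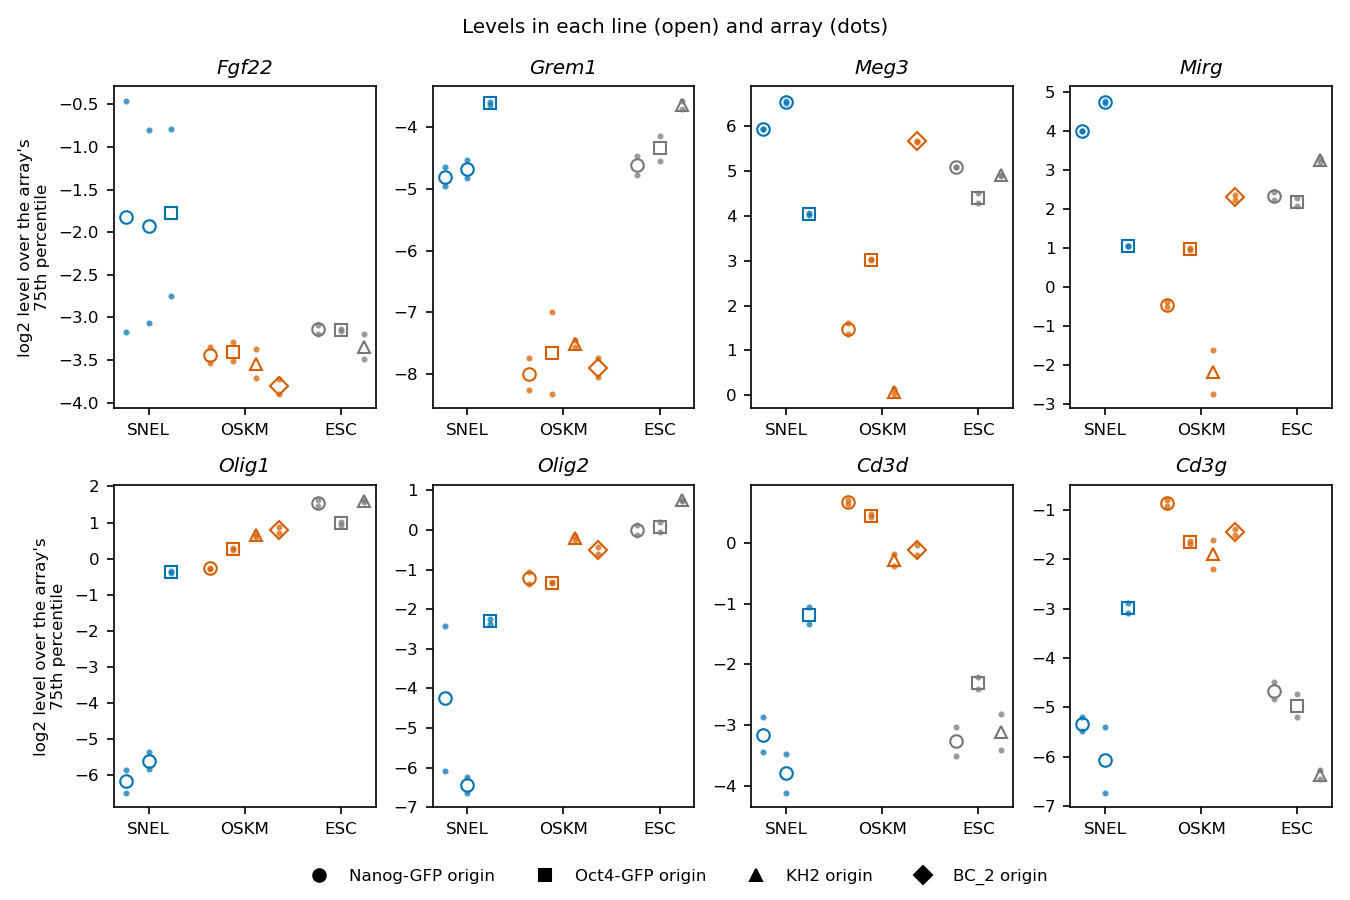
Level (log2 over the array's 75th percentile, y axis) of 8 genes in SNEL, OSKM and ESC lines (x axis), with open symbols for line means by reporter origin and dots for the 2 arrays of each line. Fgf22 splits between the arrays of each SNEL line, Grem1 averages -4.37 in SNEL lines and -7.76 in OSKM lines, and Meg3 and Mirg are low in 3 of 4 OSKM lines.

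No other gene passed the adjustment over all genes. The 15 largest positive and 15 largest negative differences among named genes whose SNEL and OSKM lines did not overlap are described without a test. They were drawn from 541 and 603 genes that were also well above background on every array of the brighter group.

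Among the larger values in SNEL lines, Xpnpep2, a membrane-bound aminopeptidase, was at -2.31, -2.14 and -3.60 in SNEL lines, against -6.23, -4.56, -5.27 and -6.41 in OSKM lines and -6.47 to -6.03 in ESC lines. It was therefore high in SNEL lines relative to both other groups. The signalling inhibitor Smad7, which blocks TGF-beta and BMP receptors, was at 1.60, 1.21 and 1.25 in SNEL lines, against 0.01, 0.55, 0.25 and -0.33 in OSKM lines, with ESC lines at 0.71 to 1.04 in between. Its difference was 1.24 ± 0.22 (SE). Setbp1, which encodes a binding partner of the SET protein, was at -2.93, -2.78 and -2.95 in SNEL lines, against -4.00, -4.95, -4.29 and -4.60 in OSKM lines and -3.95 to -3.65 in ESC lines. The transcription factor Zfp521 was at -1.69, -2.15 and -2.86 in SNEL lines, against -5.50 to -3.70 in OSKM lines, and ESC lines spanned -4.51 to -2.31. Slit2, a ligand of Robo receptors, differed by 1.48 and Prickle1, of the planar polarity pathway, by 1.24. Ptprz1 (a receptor phosphatase) differed by 1.34 and Map1b (a microtubule-associated protein) by 1.66. The remainder were Lrrc15 (1.80), Gm6651 (1.52), Map3k10 (1.49), Rhox6 (1.44), Btnl1 (1.33) and Ttc23 (1.22). For Map1b and Gm6651 the low end was set by BC_2 OSKM alone, at -3.31 and -7.32, and for Map3k10 the high end by Nanog-GFP SNEL#3, at -1.79.

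Among the smaller values in SNEL lines were neighbouring genes. Olig1 and Olig2 encode basic helix-loop-helix factors of the oligodendrocyte and motor neuron lineages and lie side by side on chromosome 16. Olig1 was at -6.17, -5.61 and -0.38 in Nanog-GFP SNEL#2, Nanog-GFP SNEL#3 and Oct4-GFP SNEL#1, against -0.27, 0.28, 0.65 and 0.80 in OSKM lines and 0.98 to 1.60 in ESC lines. Its signal was well above background on none of the 4 Nanog-GFP SNEL arrays, whereas Oct4-GFP SNEL#1 was just below the lowest OSKM line. Olig2 was at -4.25, -6.44 and -2.31 in SNEL lines, against -1.21, -1.33, -0.20 and -0.52 in OSKM lines and 0.00 to 0.75 in ESC lines.

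Cd3d and Cd3g, which encode chains of the T cell receptor complex and are neighbours on chromosome 9, showed another order of the ESC lines. Cd3d was at -3.15, -3.79 and -1.19 in SNEL lines, against 0.67, 0.45, -0.28 and -0.12 in OSKM lines and -3.26 to -2.30 in ESC lines. Cd3g was at -5.34, -6.06 and -2.98 in SNEL lines, against -0.85, -1.65, -1.90 and -1.44 in OSKM lines and -6.36 to -4.66 in ESC lines. Thus the OSKM lines were the high group for both, and Oct4-GFP SNEL#1 lay between. The urothelial gene Upk3a had the same order, at -6.67, -6.43 and -3.16 in SNEL lines, against -3.07 to -0.91 in OSKM lines and -6.46 to -3.88 in ESC lines.

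The sperm motility kinase genes Smok2b and Smok4a, both on chromosome 17, differed by -2.78 and -2.61. For a group well above background on none of its arrays, the other group's mean is set against the lowest signal well above background there, or the probe's own where that is higher. Smok2b was well above background on 0 of 6 SNEL and 8 of 8 OSKM arrays, at least 3.59-fold higher in OSKM lines (adjusted p = 0.469 in limma, lines at -6.36 to -5.58 in SNEL and -4.13 to -1.99 in OSKM, the OSKM mean being -3.22). Gm11427 was likewise above background on 0 of 6 SNEL arrays, 8 of 8 OSKM arrays and 0 of 6 ESC arrays, at least 1.64-fold higher in OSKM lines, with means of -6.79 in SNEL lines and -4.44 in OSKM lines and a limma adjusted p of 0.136. Detection on 8 of 8 OSKM arrays was a condition for entering this set. Gm11427 also passed the filter of at least 4 arrays through its OSKM arrays alone, so its pattern of detection is a description only. Both bounds belong to this scaling, since after normexp correction and quantile normalization the differences were -0.94 for Smok2b and -0.58 for Gm11427. Elobl (-3.58), Wdr95 (-3.17), Xlr4b (-2.65), Gm3143 (-2.58), the homeodomain-only gene Hopx (-2.58), the noncoding RNA Platr5 (-2.39) and mesothelin, Msln (-2.35), completed the set. Wdr95 and Xlr4b had their high end in Nanog-GFP OSKM#2, at 0.59 and 0.08, with the other OSKM lines at -2.97 to -2.41 and -4.11 to -3.68.

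**Figure D3:**
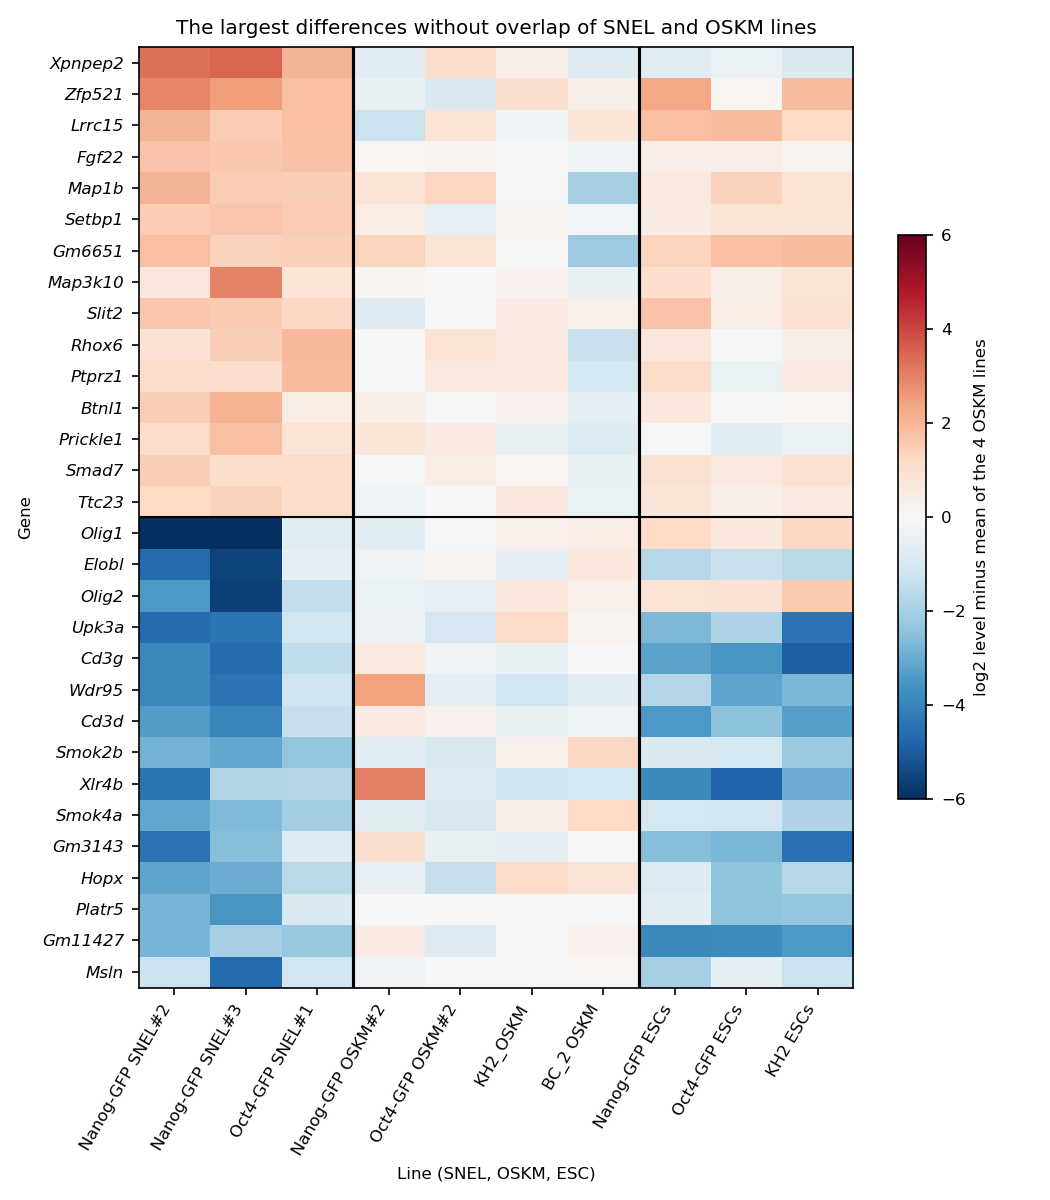
Log2 level minus the mean of the 4 OSKM lines (colour) of the 30 genes with the largest differences without overlap (rows), in SNEL, OSKM and ESC lines (columns). Oct4-GFP SNEL#1 is paler than the Nanog-GFP SNEL lines for most of the genes lower in SNEL lines, such as Olig1, whose levels were -0.38 in the first and -6.17 and -5.61 in the others.

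Without Oct4-GFP SNEL#1, the line that stood apart, the test over all genes called 71 genes higher (0.262%) and 271 lower (1.0%) in the 2 Nanog-GFP SNEL lines than in the 4 OSKM lines. The line was left out for its distance over these same genes, which by itself narrows the spread among SNEL lines, and the 2 lines kept share 1 origin. These calls are therefore a description of those lines and no test of the factor sets. Of the 108 genes that the naming rule takes, 5 were called higher and 17 lower in that fit. Apart from the factors and the Dlk1-Dio3 and sex-linked genes, they were named by their differences between these same lines. A share called above that over all genes was therefore built in. Higher were Fgf22, Grem1, Xpnpep2 (3.40 ± 0.48, SE), Setbp1 (1.61 ± 0.26) and Btnl1 (1.78 ± 0.32). Lower were Olig1 (-6.25 ± 0.34), Olig2, Elobl, Upk3a, Cd3d, Cd3g, Platr5 and Gm11427 of the genes above. Also lower were Hoxd13, a posterior homeobox gene (-2.71 ± 0.24), Cited1, a transcriptional coactivator of trophoblast and kidney (-2.67 ± 0.26), Ascl2, the imprinted trophoblast and Wnt target factor (-1.78 ± 0.28), and the tight junction gene Ocln (-2.26 ± 0.25). Among the others were the forkhead genes Foxq1 and Foxc2, the immediate early gene Ier3 and the Wnt antagonist gene Nkd1. Each line in this comparison had 1 array on each of the same 2 slides, whereas the second array of Oct4-GFP SNEL#1 lay on another slide. The Nanog-GFP lines also had the lowest shares of probes above background, whose part in these calls was not tested.

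The ESC lines give a scale for the genes that separated SNEL from OSKM lines. Of the 959 genes with all SNEL lines above all OSKM lines, the ESC mean was nearer to the SNEL mean for 744 (77.6%), and all 3 ESC lines were above all 4 OSKM lines for 575. Of the 1067 genes with all SNEL lines below, the ESC mean was nearer to the SNEL mean for 437 (41.0%), and all ESC lines were below all OSKM lines for 242 (22.7%), while all ESC lines were above all SNEL lines for 465 (43.6%). Slide 3 holds 3 of the 6 ESC arrays and 1 SNEL array but no OSKM array. Without it, an alternative chosen after seeing the data, the ESC mean was nearer to the SNEL mean for 554 of 851 genes above (65.1%) and 454 of 1236 genes below (36.7%). Differences of at least 2-fold made up 7.82% of the first group and 21.0% of the second. These shares describe the genes chosen, have no share over all genes beside them and carry no test.

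The factors themselves did not pass the test between the groups. Whether their probes could also read any remaining transgene was not examined. Sall4 was at 4.55, 4.70 and 4.09 in SNEL lines, against 3.90 to 4.28 in OSKM lines, and Esrrb at 7.73, 7.48 and 7.19, against 7.18 to 7.41. Nanog was at 6.62, 6.52 and 7.22 in SNEL lines, against 6.57 to 7.09 in OSKM lines. Lin28a and Myc spread most within the groups. Lin28a was at 4.99, 5.27 and 2.10 in SNEL lines, against 4.92, 4.12, 2.74 and 2.94 in OSKM lines. Of the OSKM factors, Pou5f1 (Oct4) was at 5.13 to 6.41 in SNEL lines, against 5.35 to 6.47 in OSKM lines, Sox2 at 4.14, 4.11 and 3.88, against 3.67 to 3.95, and Klf4 at 5.48, 5.38 and 4.63, against 4.17 to 5.07. Myc was at -1.32, -0.79 and -3.92 in SNEL lines, against -1.95, -0.73, -2.22 and -4.49 in OSKM lines and -4.46, -1.41 and -0.47 in ESC lines, so the groups overlapped fully. Differences for the 8 factors ran from -0.13 to 0.54. Oct4-GFP SNEL#1 was the lowest SNEL line for each of them but Nanog.

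At the imprinted Dlk1-Dio3 cluster on chromosome 12, 3 of the 4 OSKM lines had low levels of the maternal noncoding RNAs. These RNAs were read by these probes (mm9, + strand), shown because noncoding transcripts are named by what they hybridize to:
Meg3, chr12:110809678-110809737: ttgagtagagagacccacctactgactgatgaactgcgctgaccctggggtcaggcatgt
Mirg, chr12:110987569-110987628: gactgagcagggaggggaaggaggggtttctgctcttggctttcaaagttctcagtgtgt
Platr5, chr1:90651800-90651859, of the set of lower values above: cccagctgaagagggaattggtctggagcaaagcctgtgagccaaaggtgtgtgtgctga
Meg3 was at 5.93, 6.53 and 4.04 in SNEL lines, against 1.49, 3.02, 0.09 and 5.65 in Nanog-GFP OSKM#2, Oct4-GFP OSKM#2, KH2_OSKM and BC_2 OSKM, and 4.38 to 5.08 in ESC lines. The 3 poor OSKM lines were below every SNEL and ESC line, and BC_2 OSKM was among the SNEL lines. Mirg was at 3.99, 4.74 and 1.04 in SNEL lines, against -0.47, 0.96, -2.19 and 2.29 in OSKM lines and 2.16 to 3.25 in ESC lines. For Mirg, Oct4-GFP SNEL#1 was about as low as Oct4-GFP OSKM#2, and below every ESC line. The differences were 2.94 ± 1.16 for Meg3 and 3.11 ± 1.12 for Mirg (SE), with limma adjusted p of 0.518 and 0.513, and the other probes for Meg3 (1.94 and 2.99) and Mirg (3.00) had the same direction. The paternally expressed genes did not follow: Dlk1 differed by -0.22 and Dio3 by 0.05, both with overlapping lines. Leaving out the 3 poor OSKM lines turned the median of the 4 genes to -0.44, against 1.496 with all lines, and the share of probes above background as a covariate turned it to -0.14.

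The 250 bases before the start of Meg3 (RefSeq, GRCm38.p6, chr12:109540746-109540995, + strand) are shown because Meg3 separated the 3 poor OSKM lines from the other lines, with capitals for the cyclic AMP response element TGACGTCA, known from the human MEG3 promoter.
Meg3: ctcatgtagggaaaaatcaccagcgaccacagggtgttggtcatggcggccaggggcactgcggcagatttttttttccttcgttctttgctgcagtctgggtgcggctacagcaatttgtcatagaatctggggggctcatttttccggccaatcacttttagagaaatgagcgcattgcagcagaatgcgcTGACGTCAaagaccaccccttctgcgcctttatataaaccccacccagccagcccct
This motif, which reads the same on both strands, was found 1 time here and in 1.55% of all promoters.

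Of all genes tested, 13301 were higher and 13758 lower in SNEL lines, with a median of -0.01, and the gene lists are described beside these. At an unadjusted p under 0.05, 3.82% of all genes were higher and 5.58% lower. Without overlap, 3.54% were above and 3.94% below. Of 36 genes of the naive and core pluripotency list, 30 were higher and 6 lower in SNEL lines, with a median difference of 0.16, but 0 passed even an unadjusted p of 0.05 and 0 had lines without overlap. The median turned to -0.06 with the share of probes above background as a covariate. Relative to the ESC mean, the list's median was 0.23, 0.25 and -0.20 in the SNEL lines, against -0.23 to 0.02 in the OSKM lines. For ribosomal proteins the median was 0.14, and 77 of 84 genes were higher, 18 of them without overlap (3.54% over all genes). Quantile normalization brought this median to 0.0059 and the authors' table to -0.003, so it depended on the scaling. The testis and ESC paralogues Rpl10l and Rpl39l went the other way, by -1.50 and -1.40, and are known as forms used in the germline.

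The list of genes of the 2-cell-like state, which mark a rare ESC state like the cleavage embryo, had a median of -0.75 over 20 genes. Its median relative to the ESC mean was -0.16, -0.39 and 3.44 in Nanog-GFP SNEL#2, Nanog-GFP SNEL#3 and Oct4-GFP SNEL#1, against 1.19, 2.75, 1.03 and 1.04 in the OSKM lines. The SNEL lines thus lay on both sides of the OSKM lines. The Pramel genes are a family of preferentially expressed antigen genes that is active in the same state. Their medians were -0.16, -0.18 and 3.08 in SNEL lines, against 2.37, 3.01, 1.14 and 1.70 in OSKM lines. At an unadjusted p under 0.05, 3 of 19 were lower, beside 5.58% of all genes. Pramel14 differed by -2.62, Pramel30 by -2.57 and Pramel13 by -0.71. BC_2 OSKM, at -3.06 for Pramel14 and -4.92 for Pramel30, was among the SNEL lines, and without the 3 poor OSKM lines these differences turned to 0.29 and 0.07. Germline genes had medians of -0.25, -0.43 and 1.37 in SNEL lines, against 0.72 to 0.91 in OSKM lines, with 24 of 27 lower over the groups. Dnmt3l, the cofactor of germline DNA methylation, was at 3.23, 4.75 and 2.78 in SNEL lines, against 4.48 to 6.16 in OSKM lines, a difference of -1.57.

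Of 17 X-linked Rhox and Xlr genes, 14 were lower in SNEL lines, with a median of -0.84 that turned to 0.15 with probes above background on all 20 arrays. The homeobox genes Rhox6 and Rhox9 had all SNEL lines above all OSKM lines, Rhox9 being at 1.38, 1.75 and 2.41 in SNEL lines, against 0.67, 1.22, 1.22 and -0.01 in OSKM lines. Xlr4a differed by -2.03 and Xlr3b by -2.46, and 4 of the 17 genes had all SNEL lines below all OSKM lines (3.94% over all genes). Members of the Xlr family are near-identical, and their probes may read several copies. With the share of probes above background as a covariate, the list medians were 0.93 for the 2-cell-like genes, 0.34 for Pramel and 0.31 for germline genes, so the sign of each turned.

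**Figure D4:**
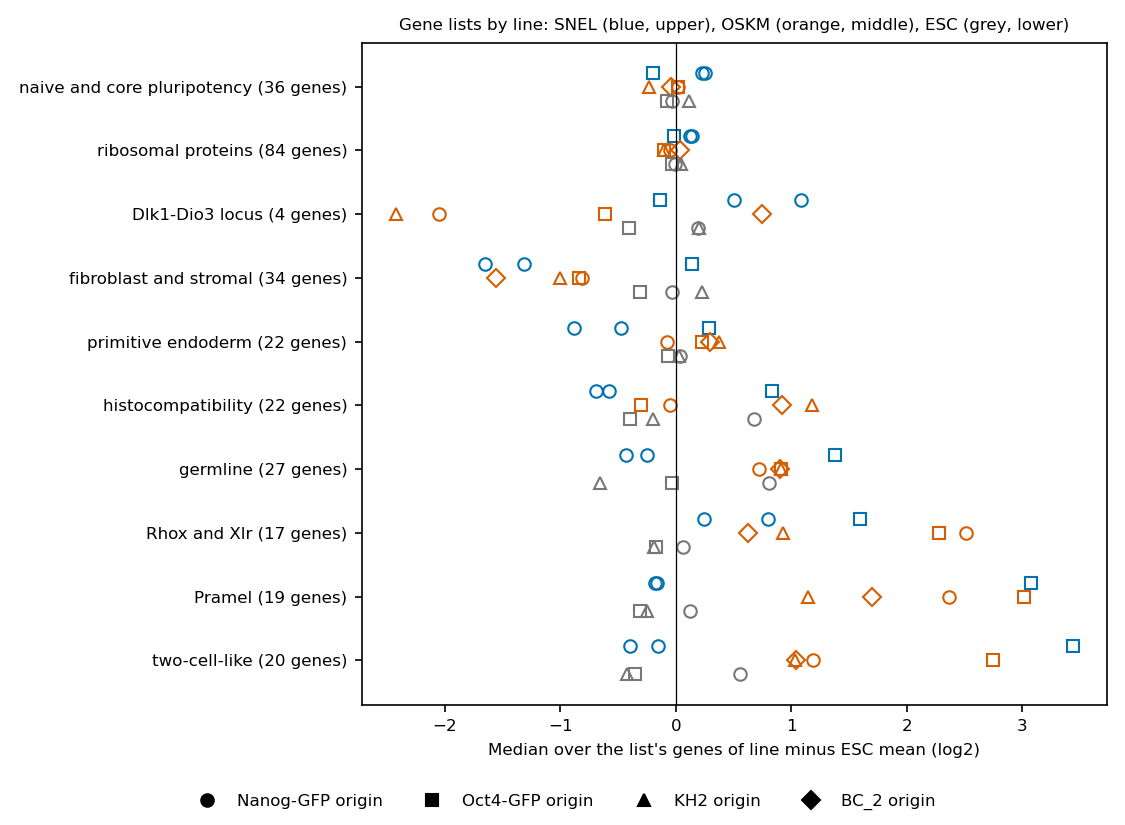
Median over each list's genes of a line's level minus the ESC mean (log2, x axis), for 10 gene lists (rows), with SNEL, OSKM and ESC lines in blue, orange and grey and reporter origins as symbols. Oct4-GFP SNEL#1 is at 3.44 for 2-cell-like genes, whereas Nanog-GFP SNEL#2 and Nanog-GFP SNEL#3 are at -0.16 and -0.39.

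Of 22 primitive endoderm genes 18 were lower (median -0.67), with 6 lower and 1 higher at an unadjusted p under 0.05. Over all genes these shares were 5.58% and 3.82%. Foxa2, a pioneer factor of endoderm, was at -4.69, -4.77 and -3.75 in SNEL lines, against -3.98 to -2.86 in OSKM lines. Hnf4a, a nuclear receptor of visceral endoderm, differed by -2.22, Foxq1 by -1.03, and the matrix gene Sparc by -0.89. Trophoblast genes had a median of -0.28, with 15 of 18 lower. Cited1 was at -1.49, -1.44 and 0.91 in SNEL lines, against 0.68 to 1.54 in OSKM lines. Ascl2 was at 1.60, 2.17 and 2.35 in SNEL lines, against 3.27, 3.47, 3.78 and 4.16 in OSKM lines and 2.64 to 3.13 in ESC lines, so the 3 groups did not overlap. Its difference of -1.63 ± 0.26 ranked 9 of all genes by p, with a limma adjusted p of 0.413.

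Hox genes had a median of -0.40 with 22 of 30 lower, Hoxd13 differing by -1.88. Of 22 mesendoderm and mesoderm genes 9 were higher and 13 lower, with a median of -0.27 that turned to 0.79 with the covariate named above, and also changed sign with origin as a block and without Nanog-GFP SNEL#3. Among them Foxc2 differed by -2.01 and Tbx6 by -0.58. Neuroectoderm genes had a median of 0.04 and no common direction, Olig2 at -3.52 and Sox1 at -0.76 standing beside Zic1 at 0.67 and Ncam1 at 0.86. The weaker probes for Zic1 and Ncam1 had the opposite sign. Of 26 epithelial genes 9 were higher and 17 lower, with a median of -0.18 that was 0.0017 without KH2_OSKM. Among them Grhl2 (a regulator of epithelial junctions) differed by -2.11, Ocln by -1.64 and Cldn6 by -1.15. The lower share of probes above background in SNEL lines stands beside each of these lists. With it as a covariate the medians were -0.03 for primitive endoderm, 0.20 for trophoblast and 0.55 for Hox genes.

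Histocompatibility genes, which display peptides to T cells, were lower for 16 of 22 (median -0.73), and their medians relative to the ESC mean were -0.58, -0.69 and 0.83 in SNEL lines, against -0.05, -0.30, 1.18 and 0.92 in OSKM lines. H2-Eb1 differed by -1.82 and H2-D1 by -0.87. H2-T3 was above background on 0 of 6 SNEL and 7 of 8 OSKM arrays, with means of -6.99 in SNEL lines and -4.44 in OSKM lines (limma adjusted p = 0.513). Oct4-GFP OSKM#2, at -7.24, was below all 3 SNEL lines, and 1 of its arrays was not well above background. Fibroblast and stromal genes had a median difference of 0.23, and 23 of 34 were higher and 11 lower. At an unadjusted p under 0.05, 6 were higher and 2 lower, beside 3.82% and 5.58% of all genes. Beside Grem1 the members with the smallest unadjusted p were Ccdc80 (a secreted matrix protein), Col6a1 (a collagen chain, 1.70) and Lum (a proteoglycan, 1.22). Ccdc80 was above background on 3 of 6 SNEL arrays and 0 of 8 OSKM arrays (limma adjusted p = 0.477, means -4.82 in SNEL lines and -7.69 in OSKM lines), with ESC lines at -3.04 to -1.76. Within the list, SNEL lines were at medians of -1.32, -1.65 and 0.14 relative to ESC lines, against -1.56 to -0.81 in OSKM lines. By these medians Oct4-GFP SNEL#1 stood apart from the Nanog-GFP SNEL lines, which did not exceed the OSKM range. The median difference of 0.23 kept its sign in 27 of 27 alternatives. With the share of probes above background as a covariate it was 1.0966. For 3 of the 34 genes (Grem1, Ccdc80 and Lum) all SNEL lines lay above all OSKM lines, beside 3.54% of all genes. These 3 had signals near background on part of the arrays. Fewer cells of a type and less RNA per cell cannot be told apart in these bulk samples.

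Median differences of the signalling lists were 0.02 for BMP, Nodal and FGF, 0.28 for Wnt targets and 0.22 for ERK targets. The first kept its sign in 17 of 27 alternatives, and the ERK median turned to -0.14 with the share of probes above background as a covariate. Lefty1, a Nodal antagonist, was at 4.52, 4.21 and 1.72 in SNEL lines, against 3.35, 0.97, -0.35 and 1.47 in OSKM lines, a difference of 2.12 that turned to -0.08 with the covariate. Of Wnt targets, Notum differed by 1.18 and Nkd1 by -1.03. Of ERK targets, Ier2 differed by 0.63 and Ier3 by -1.62. Of 17 primed epiblast genes 14 were higher in SNEL lines, with a median of 0.46 that turned to -0.08 with the covariate. Among the lower ones, the factor gene Pou3f1 was at -1.55, -1.05 and -0.93 in SNEL lines, against -0.84 to 0.12 in OSKM lines and -0.60 to -0.02 in ESC lines, a difference of -0.83. The Polycomb gene Phc2 differed by 0.62, and the cell cycle inhibitor gene Cdkn2b differed by -0.95. Other members with an unadjusted p under 0.05 included Gpr1 (2.36), Zfp64 (0.42), Mbd1 (0.75), Eda2r (0.59), Gtse1 (0.73), Pes1 (0.82), Fign (1.05), Igf2bp1 (-0.39) and Fgfr2 (0.31). Further ones were Rsad2 (1.31), Oas1a (-0.70), Sdf2l1 (-0.50), Ddit4 (-1.12), H2bc21 (-0.90), H2ac6 (-0.78), H2ac21 (0.50), Rps21 (0.42, and 0.26 without Oct4-GFP SNEL#1) and Rps3 (0.30). Rps21 and Rps3 were raised on slide 3, which holds a SNEL array but no OSKM array. Rps21 was at 5.79 there in Oct4-GFP SNEL#1, against 4.61 on its first array, and at 5.76 to 5.87 in ESC lines. For Rps3 these 2 arrays of Oct4-GFP SNEL#1 gave 7.16 and 6.65. With slide as a block the difference of Rps21 was 0.20. The second probe of Xaf1, which differed by -0.87, gave 3.18, so the direction of Xaf1 is not settled. Of the metabolic lists, oxidative phosphorylation had a median of 0.06, with 54 of 83 genes higher. Glycolysis had a median of -0.19, with 19 of 25 lower, and cholesterol synthesis one of -0.06, with 14 of 24 lower. These lists held 0 members under an unadjusted p of 0.05. With the share of probes above background as a covariate the medians were -0.06, 0.04 and 0.09, in that order.

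Y-linked genes varied by line. Eif2s3y was at 2.94, 0.64 and 3.49 in SNEL lines, against 2.40, 3.00, -1.20 and -3.12 in OSKM lines, and at -8.11, 1.42 and 1.39 in Nanog-GFP, Oct4-GFP and KH2 ESCs. Ddx3y was at 0.73, -0.30 and 1.00 in SNEL lines, against 0.74, 0.69, -2.73 and -3.06 in OSKM lines. Thus KH2_OSKM and BC_2 OSKM were low for both among iPSC lines, and Nanog-GFP ESCs were not well above background for either.

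Chromosome medians relative to ESC lines stayed within 0.085 of 0 in all 3 SNEL lines on every autosome and the X. The widest difference between the groups was on chromosome 8 (1457 genes), at -0.05, -0.04 and -0.09 in the SNEL lines, against 0.21, -0.05, 0.08 and -0.06 in Nanog-GFP OSKM#2, Oct4-GFP OSKM#2, KH2_OSKM and BC_2 OSKM. Oct4-GFP ESCs were at 0.11, and Nanog-GFP and KH2 ESCs at -0.05 and -0.03. The raised median was thus that of 2 of 4 OSKM lines and 1 of 3 ESC lines, and of none of the SNEL lines. The difference between group means was -0.11, and -0.10 to -0.06 under the 5 alternatives run for chromosome medians.

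**Figure D5:**
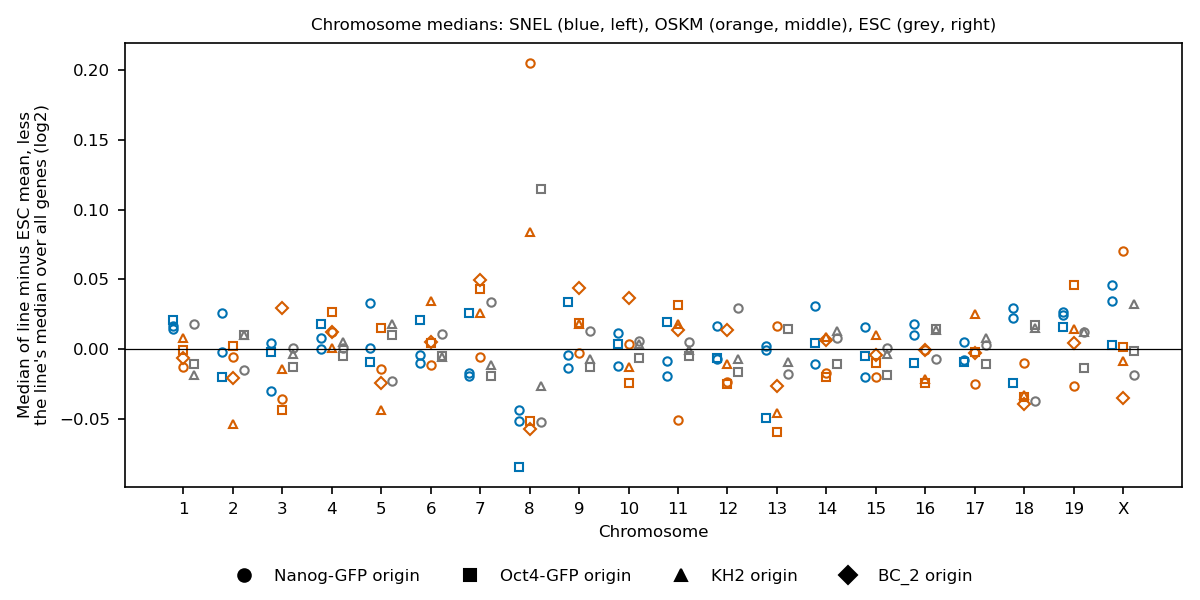
Median over the genes of each chromosome (x axis) of a line's level minus the ESC mean, less the line's median over all genes (log2, y axis), for SNEL, OSKM and ESC lines with reporter origins as symbols. On chromosome 8, Nanog-GFP OSKM#2 (0.21), Oct4-GFP ESCs (0.11) and KH2_OSKM (0.08) lie above the rest.

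Lines of the same reporter origin allow the factor sets to be set side by side with 1 OSKM line each, without a test. Meg3 was 4.74 higher in the Nanog-GFP SNEL lines than in Nanog-GFP OSKM#2, and 1.01 higher in Oct4-GFP SNEL#1 than in Oct4-GFP OSKM#2. The median over all genes was 0.06 for Nanog-GFP origin and -0.09 for Oct4-GFP origin. Stromal genes were at a median of 0.27 for Nanog-GFP origin and 1.29 for Oct4-GFP origin. Of 34 stromal genes, 19 were higher for Nanog-GFP origin and 29 for Oct4-GFP origin. Over all 27059 genes, 15232 and 11492 were higher, so the stromal share for Nanog-GFP origin was close to that of all genes. Histocompatibility genes were at -0.78 for Nanog-GFP origin and 1.26 for Oct4-GFP origin. The Dlk1-Dio3 genes were at 2.65 for Nanog-GFP origin and 0.24 for Oct4-GFP origin. So the medians of the Dlk1-Dio3 and stromal genes had 1 sign in both origins, and that of the histocompatibility genes did not.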

How the data were processed

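The authors deposited scanner files of 20 Agilent arrays in 1 colour. Per the file headers, the intensity of each spot came from Feature Extraction 10.1.1.1 with background subtracted, and probe positions are on mm9. Values in the authors' deposited table are on a log2 scale, with a normalization that is not given in the sources used here. The submitters' processing notes name limma.

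Of 62976 spots, 59305 were no controls. Flagged values were left out, spots of a probe averaged, and the log2 processed signal set relative to its array's 75th percentile (587 to 1076). A probe entered if at least 4 arrays had it well above background (38756 of 55681). Each gene took its brightest probe (27059 genes). RefSeq gave symbols to 26418 probes by accession, 3856 by symbol and 735 by synonym, and 24672 kept the file's name. Per array, 48.9% to 77.2% of probes were well above background and 0 probes were saturated. Precision is limited by how many arrays there are.

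The 2 arrays of a line were averaged. Limma 3.58.1 (R 4.3.3) fitted all 10 lines as SNEL, OSKM and ESC, with Benjamini-Hochberg adjustment over all genes and a threshold of 0.05, and was tested on simulated data. P-values measure the spread between these lines, which were counted as independent although some share a reporter origin. Members, the 36 lists and the rule for named genes were chosen with earlier results of these data known. The rule names genes past the threshold, the 15 largest differences in each direction without overlap, the factors, the Dlk1-Dio3 and sex-linked genes, and at most 4 members per list with the smallest unadjusted p under 0.05. Alternatives covered scaling, filters, choice of probe, blocks, slides, and arrays and lines left out. Array numbers run largely with slides, and no label says that a number pairs cultures. First-minus-second array differences correlated at 0.32 between SNEL and OSKM, 0.45 between SNEL and ESC, and 0.12 between OSKM and ESC. A few genes that the rule names are not reported here.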

Additional observations from a re-analysis of the deposited data

Results flagged for a closer look

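Among the 4 OSKM lines, 8 of 144 sets of values held 1 line far from the other 3, its gap over the range being above Dixon's critical value. Chance gives about 1 in 20, and the count was close to that, so the sets below are a description. Nanog-GFP OSKM#2 was that line for Wdr95 (0.59, others -2.97 to -2.41), Xlr4b (0.0774, others -4.11 to -3.68), the X-inactivation antisense RNA Tsix (-2.39, others -4.34 to -4.06) and Hnf4a (-0.25, others -2.34 to -2.04). It was also apart in list medians relative to the ESC mean, at 0.72 for germline genes (others 0.90 to 0.91) and -0.0317 for let-7 targets (others -0.13 to -0.12). Oct4-GFP OSKM#2 stood apart for 2-cell-like genes (2.75, others 1.03 to 1.19), and KH2_OSKM for imprinted genes outside the Dlk1-Dio3 cluster (-0.32, others -0.0073 to 0.06).

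For 12 of 36 lists, the SNEL minus OSKM median, centred on each array's median over all genes, had opposite signs in every array of Nanog-GFP and Oct4-GFP origin. These differences were not tested, and each origin has 1 OSKM line. Nanog-GFP minus Oct4-GFP, they were -2.47 for Pramel genes (-2.20 and 0.27), -2.16 for histocompatibility (-0.88 and 1.29), -1.72 for germline (-0.99 and 0.73) and -1.66 for 2-cell-like genes (-1.19 and 0.47). They were -1.12 for Hox, -0.84 for sex-linked, -0.76 for primitive endoderm, -0.53 for epithelial (-0.5316) and glycolysis (-0.5274) and -0.25 for imprinted genes. For ERK targets and let-7 targets the differences were 0.26 and 0.16. How many lists would show opposite signs without an origin difference was not estimated. By line means, 13391 of all 27059 genes had the same sign in both origins.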

How the results depend on the processing

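The 2 genes called against 27059 tested became 0 with the 7 SNEL and OSKM lines only, with reporter origin as a block, with the share of probes above background as a covariate, and with the median of a gene's probes (limma, 1809, 1368, 874 and 2482 genes at an unadjusted p under 0.05). There were 7 after quantile normalization and 1 with probes above background on all 20 arrays. Fitting the 20 arrays gave 83 genes with line alone as a random effect, 11 with slide as a block and 46 with the array number as a replicate block, and Fgf22 was not among them. Slide 2 alone gave 68, and leaving out the 3 poor OSKM lines gave 17, with 0 shared with the 2. Leaving out 1 array number or 1 line gave 0 to 342 genes. The 342 were without Oct4-GFP SNEL#1 and 10 without Oct4-GFP OSKM#2, 4 without the second arrays, and 1 without BC_2 OSKM. None was called without the first arrays, Nanog-GFP OSKM#2, KH2_OSKM, either Nanog-GFP SNEL line, Nanog-GFP ESCs or Oct4-GFP ESCs.

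Genes without overlap numbered 2026, against 7247 within slide 2, 14797 without the 3 poor OSKM lines, and 1669 to 8349 with 1 array number or line left out, where fewer lines are compared. The distance difference of -0.05 turned to 0.0067 without the filter on dim probes; the cause was not tested. Direction was kept by 891 of 972 list medians, 2831 of 2876 values of named genes and 82 of 100 chromosome medians. Signals near background limit what Grem1, Ccdc80, Smok2b, Gm11427 and H2-T3 show. Other named genes, among them Rsad2, H2ac6 and Lum, also had signals near background on part of the SNEL and OSKM arrays. So did Hoxd13 and Foxc2 in the Nanog-GFP SNEL lines.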
